A study of Mus musculus with 6 samples.

Results

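The eosinophil granule protein genes were Prg2, Prg3, Epx, Ear1, Ear2 and Ear6, taken as the rows of the count table that carry these symbols. All 6 had a row among the 16254 genes listed, and all 6 passed the filter on low counts that left 13498 genes for testing. RNA was sequenced from 6 cultures of eosinophils grown from the bone marrow of young adult C57BL/6 mice, first with FLT3 ligand and stem cell factor and then with IL-5. The 3 EV-treated cultures received extracellular vesicles (EVs), membrane-bound particles released by cells, purified by size exclusion chromatography from activated mouse TH2 cells, the helper T cells of type 2 immunity. The study's methods give 5000000000 EVs per mL for its eosinophil cultures. The 3 sham-treated cultures received medium that had met no cells and had passed through the same isolation. Both groups were collected after 24 h, all cultures shared the strain and the differentiation, and the labels list no other allele or agent.

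Eosinophils store cationic proteins in crystalloid granules and release them onto parasites and into inflamed tissue. The crystalline core is built from major basic protein, and the matrix around it holds eosinophil peroxidase and ribonucleases. These proteins are made largely while the cell matures in the marrow and are then kept in the granule, so that a transcript level and the stored protein need not move together. Prg2 encodes major basic protein, Prg3 its homolog, and Epx the peroxidase. Ear1, Ear2 and Ear6 encode eosinophil-associated ribonucleases, the mouse relatives of human eosinophil cationic protein and eosinophil-derived neurotoxin.

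The 6 genes lie at 4 places in the mouse genome (mm10, GENCODE vM21 models). Prg2 (chr2:84980461-84983632, plus strand, 6 exons) and Prg3 (chr2:84988215-84993886, plus strand, 6 exons) are neighbours, and their coding sequences were 64.1% identical. Epx (chr11:87864000-87875536, minus strand) has 13 exons. Ear1 (chr14:43818765-43875517, minus strand) and Ear2 (chr14:44102654-44103534, plus strand) lie on the same stretch of chromosome 14, and Ear6 (chr14:51853699-51854643, plus strand) lies apart from them on that chromosome. The Ear genes are close copies, which bears on how reads were divided between them. The coding sequence of Ear1 was 95.1% identical to that of Ear2 and 87.4% identical to that of Ear6. Coding bases 68 to 127 are shown because reads must tell these copies apart. Of the 60-base stretches before the first gap in the alignments of Ear1 with its copies, Ear6 differs most from Ear1 in this one. Capitals mark the bases that differ from Ear1, 4 in Ear2 and 15 in Ear6.
Ear1: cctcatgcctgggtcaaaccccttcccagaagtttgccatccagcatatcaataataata
Ear2: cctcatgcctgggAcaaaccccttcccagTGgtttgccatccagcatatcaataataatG
Ear6: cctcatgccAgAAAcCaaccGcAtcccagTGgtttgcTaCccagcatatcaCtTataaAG

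Of the 31-base words in the Ear1 transcripts, 73.6% also occur in another annotated gene, 40.6% in Ear2 and 48.6% in the pseudogene Ear-ps9. The share was 60.5% for Ear2 and 9.15% for Ear6. No such word of Prg2, Prg3 or Epx occurs in another gene. The split of counts between Ear1 and Ear2 is therefore uncertain, and the Ear genes are also given below as a sum.

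Sequencing depth was high, with between 23697620 and 37874426 estimated counts per library, and mitochondrial genes took 0.694% to 0.897% of each. The eosinophil markers Siglecf, Ccr3, Il5ra and Alox15 were present in all 6 libraries, at a summed 2047 to 2396 CPM (counts relative to the TMM-scaled library total) in sham-treated and 3653 to 3960 in EV-treated cultures. In edgeR's quasi-likelihood test with Benjamini-Hochberg adjustment over all genes, 12.1% of genes were higher with EVs and 11.6% lower. The threshold for a call was an adjusted p under 0.01. Without scaling factors the calls were 1036 higher and 2338 lower, against 1632 and 1572 with them. The sample titles call the cultures of each group biological replicates. Nothing states that the 3 cultures of a group came from different mice, so p-values measure the spread between these cultures. In bulk RNA, a change in the number of cells of a type and a change in RNA per cell cannot be told apart.

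Granule transcripts were among the most abundant in these cells. Prg2 had the highest count of any gene in each of the 6 libraries. Divided by transcript length, Prg2 also ranked 1 of 12960 genes with a known length in every library, with 24540 ± 3080 CPM per kb in sham-treated and 28720 ± 1260 in EV-treated cultures (SD, n = 3 each). Ear1 ranked between 3 and 5, at 3817 ± 440 CPM per kb in sham-treated and 7136 ± 569 in EV-treated cultures (SD, n = 3 each). Next came Ear6, Ear2 and Epx, at 2278 ± 220, 1984 ± 248 and 1771 ± 196 CPM per kb in sham-treated cultures (SD, n = 3 each). With EVs, they were at 3678 ± 315, 3510 ± 411 and 2356 ± 209 CPM per kb (SD, n = 3 each). Within each of the 6 libraries the order was Ear6, Ear2, Epx. Across cultures the ranges of Ear6 and Ear2 overlapped in both groups, and those of Ear2 and Epx overlapped with sham but not with EVs. Prg3 was the least abundant, with 363.4 ± 29.7 CPM per kb in sham-treated and 374.3 ± 18 in EV-treated cultures (SD, n = 3 each), and ranked between 130 and 180.

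To see whether EVs changed the expression of granule genes, each member was compared between EV- and sham-treated eosinophils. The 3 ribonuclease genes and Epx rose, whereas the genes of the major basic proteins did not pass the test. That is 4 of 6 members called higher, beside 12.1% of all genes tested, and no member was lower by edgeR or by DESeq2, or had a negative change at an unadjusted p under 0.05. The cultures of the groups did not overlap, with EV-treated cultures higher, for the same 4 of 6 members and for 24.8% of all genes. The changes were moderate. With a log2 fold change of at least 1 also required, 0 of 6 members and 3.1% of all genes were called higher, and at an adjusted p under 0.05 instead, 5 of 6 members and 17.5% of all genes. The median log2 fold change was 0.55 over the members and -0.014 over all genes tested.

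**Figure D1:**
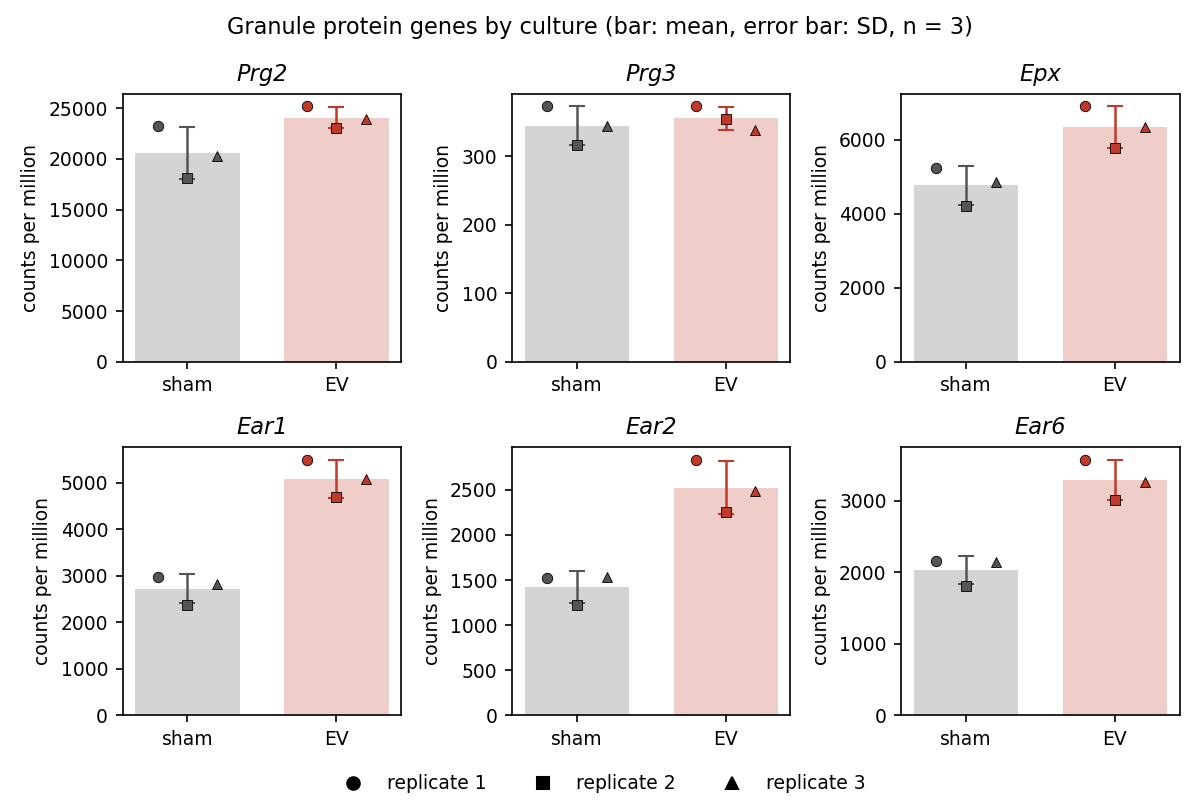
CPM (TMM scaled, linear axis from 0) of each granule protein gene in the 3 sham-treated (grey) and 3 EV-treated (red) cultures. Bars are means, error bars are SD, and point shapes give the replicate number. Ear1, Ear2, Ear6 and Epx separate the groups, while sham replicate 1 reaches the EV-treated range for Prg2 and Prg3.

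Ear1 had the largest estimated change, but its 95% interval overlapped that of Ear2 (0.59 to 1.05), and the split between them is uncertain. Ear1 had 2965, 2368 and 2832 CPM in sham replicates 1 to 3 and 5500, 4688 and 5076 CPM in EV replicates 1 to 3. Every EV-treated culture was thus well above every sham-treated one. The mean rose from 2722 ± 314 to 5088 ± 406 CPM (SD, n = 3 each), a 1.87-fold increase (log2 fold change 0.90, standard error 0.087, 95% interval 0.71 to 1.10, adjusted p = 2.67e-05 in edgeR's test). Of all genes tested, 860 had a fold change at least as large, which places Ear1 at percentile 93.6 of the log2 fold changes.

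Ear2 had 1527, 1220 and 1532 CPM in the sham-treated and 2837, 2250 and 2484 CPM in the EV-treated cultures. The groups did not overlap, and the fold change was 1.77 (log2 fold change 0.82, standard error 0.102, adjusted p = 0.000153 in edgeR's test). Ear6, the copy with few shared words, had 2155, 1807 and 2140 CPM in the sham-treated and 3576, 3015 and 3263 CPM in the EV-treated cultures. It too separated the groups, with a fold change of 1.61 (log2 fold change 0.69, standard error 0.082, adjusted p = 0.000105 in edgeR's test).

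The rise was also seen in the sum of the ribonuclease genes, which does not depend on how reads were split among the rows added. Ear1, Ear2, Ear6 and Ear10 summed to 6182 ± 685 CPM in sham-treated and 10896 ± 982 CPM in EV-treated cultures (SD, n = 3 each), 1.76-fold higher (log2 fold change 0.82, standard error 0.087, adjusted p = 5.1e-05 in edgeR's test). Ear10, whose coding sequence is 97% identical to that of Ear2, was near the floor, at 2, 1 and 3 estimated counts in the sham-treated and 7, 6 and 9 in the EV-treated libraries. The pseudogene Ear-ps9 had between 347 and 502 estimated counts per library and was not called (log2 fold change -0.12, standard error 0.136, adjusted p = 0.53 in edgeR's test). Within the sum, Ear1 took 43.5% to 44.6% of the counts in sham-treated and 46.2% to 47.1% in EV-treated libraries, while Ear6 took 32.4% to 33.5% and 30.0% to 30.3%. Ear2 stayed between 22.6% and 23.8% in all 6 libraries. Ear1 thus took a slightly larger and Ear6 a slightly smaller part with EVs, with no overlap between the groups for either.

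Epx, the peroxidase, had 5234, 4194 and 4857 CPM in the sham-treated and 6896, 5774 and 6339 CPM in the EV-treated cultures. The groups did not overlap, and the lowest EV-treated culture was EV replicate 2 and the highest sham-treated one sham replicate 1. The mean rose from 4762 ± 527 to 6336 ± 561 CPM (SD, n = 3 each), a fold change of 1.33 (log2 fold change 0.41, standard error 0.086, 95% interval 0.22 to 0.60, adjusted p = 0.00404 in edgeR's test). This call was less firm than those of the Ear genes. It was lost without scaling factors (log2 fold change 0.27, adjusted p = 0.0262) and when sham replicate 2, sham replicate 3, EV replicate 1 or EV replicate 3 was left out (adjusted p between 0.0122 and 0.019), although Epx was higher with EVs in each of these fits.

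Prg2, the gene of major basic protein, had 23243, 18104 and 20334 CPM in the sham-treated and 25194, 23095 and 23925 CPM in the EV-treated cultures. Sham replicate 1 lay above EV replicate 2, so the groups overlapped. The mean was 20560 ± 2577 CPM with sham and 24071 ± 1057 CPM with EVs (SD, n = 3 each), and the difference (log2 fold change 0.23, standard error 0.079, 95% interval 0.050 to 0.40, adjusted p = 0.0478 in edgeR's test) was not called. Leaving out sham replicate 1 changed the call, with a log2 fold change of 0.33 and an adjusted p of 0.00185. So did entering the replicate number as a block (log2 fold change 0.23, adjusted p = 0.000557 in edgeR's test).

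Prg3, the homolog of Prg2, had 373, 317 and 345 CPM in the sham-treated and 373, 354 and 339 CPM in the EV-treated cultures. The values of the groups lay within each other. Its log2 fold change was 0.042 (standard error 0.070, 95% interval -0.11 to 0.20, adjusted p = 0.685 in edgeR's test). The interval holds changes in either direction, and the sign turned under other scalings (-0.10 without scaling factors and -0.0037 with upper quartile scaling).

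**Figure D2:**
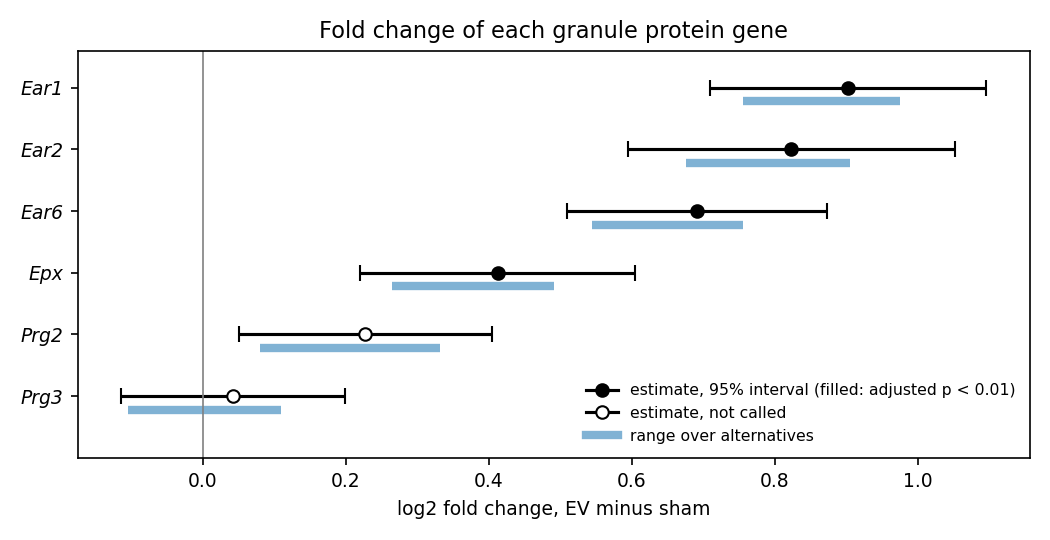
Log2 fold change (EV minus sham) of each member with its 95% interval from edgeR's fit (black, filled where the adjusted p is under 0.01) and, below each, the range of the estimate over 16 alternative analyses (blue). The order runs from Prg3 at 0.042 to Ear1 at 0.90, and the blue range crosses 0 for Prg3 but for no other member.

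The cultures also varied together within each group. Sham replicate 2 was the lowest sham-treated culture for all 6 members and EV replicate 1 was the highest EV-treated culture for all 6. Over the 6 libraries, the mean of the members' standardised log2 CPM was -0.12, -1.43 and -0.61 in sham replicates 1 to 3 and 1.15, 0.43 and 0.58 in EV replicates 1 to 3. Pearson's r with that mean, which includes the gene itself, was 0.992 for Epx and between 0.954 and 0.966 for Prg2, Ear1, Ear2 and Ear6. Prg3 followed it least, at 0.703. Of 8323 tested genes with a mean of at least 10 CPM, 150 others had r of at least 0.95 with this mean. The most alike were Smc4 (r = 0.997), Zfp207 (0.9965), Rbl2 (0.9937), Nde1 (0.9934) and D17H6S53E (0.9933). Their differences between the groups were smaller than that of Epx, between 1.11-fold and 1.22-fold, and Rbl2, a pocket protein of cell cycle exit, was the one called (adjusted p = 0.00959 in edgeR's test). These r are a description over 6 libraries that share the difference between treatments.

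Because all members are read from the same library, their ratios depend on no scaling factor, and they show how unequal the changes were. For every 100 Prg2 counts there were 12.8, 13.1 and 13.9 Ear1 counts in the sham-treated and 21.8, 20.3 and 21.2 in the EV-treated libraries. The spread within each group was narrow, and the groups were far apart. Per 100 Prg2 counts, Ear2 went from 6.57, 6.74 and 7.53 to 11.3, 9.74 and 10.4 counts, and Ear6 from 9.27, 9.98 and 10.5 to 14.2, 13.1 and 13.6. Epx went from 22.5, 23.2 and 23.9 to 27.4, 25 and 26.5 counts per 100 Prg2 counts. All 4 ratios were higher in every EV-treated library than in any sham-treated one, with log2 differences of 0.67 for Ear1, 0.59 for Ear2, 0.46 for Ear6 and 0.18 for Epx. Prg3 moved the other way relative to Prg2, from 1.61, 1.75 and 1.7 to 1.48, 1.53 and 1.42 counts per 100, a log2 difference of -0.19 with no overlap.

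Each of these 5 ratios gave p = 0.1 in a two-sided exact permutation test, the smallest that 3 against 3 cultures allow, and 0.12 after adjustment over the 6 ratios tested. The ratio of Ear2 to Ear1 overlapped between the groups. There were 51.5, 51.5 and 54.1 Ear2 counts per 100 Ear1 counts in the sham-treated and 51.6, 48 and 48.9 in the EV-treated libraries (log2 difference -0.082, exact permutation p = 0.3, adjusted p = 0.3).

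**Figure D3:**
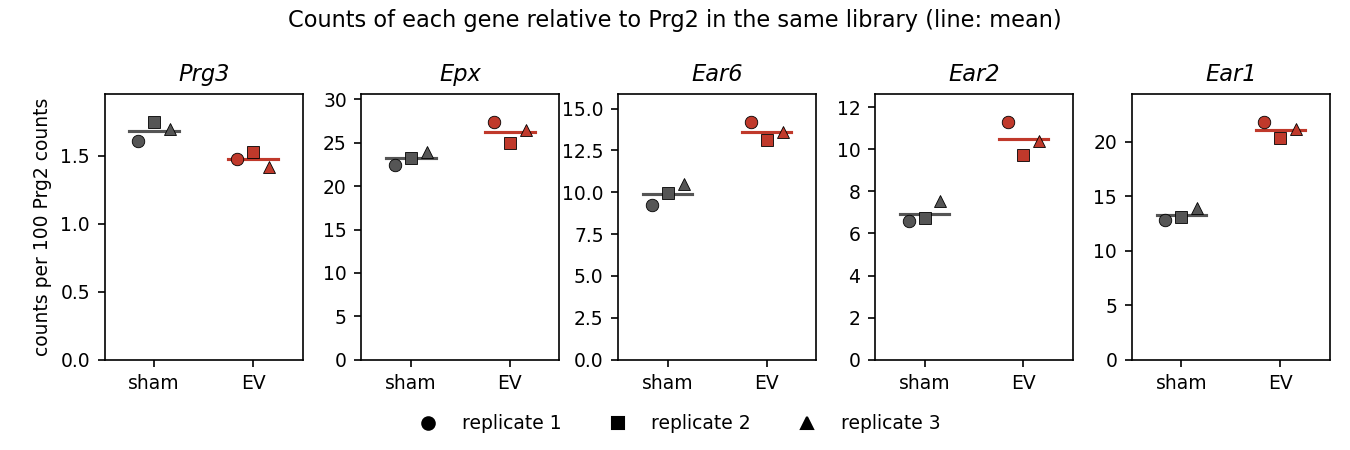
Estimated counts of each gene per 100 counts of Prg2 in the same library (linear axes from 0, 1 scale per gene) for 3 sham-treated (grey) and 3 EV-treated (red) cultures. Lines are means. The groups are apart for all 5 genes, with EV-treated libraries higher for Epx, Ear6, Ear2 and Ear1 and lower for Prg3.

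The 6 genes together took 3.71%, 2.98% and 3.37% of all counts in sham replicates 1 to 3 and 4.25%, 3.75% and 3.88% in EV replicates 1 to 3. The groups were separate, though sham replicate 1 came close to EV replicate 2. The mean share was 3.35% ± 0.365 with sham and 3.96% ± 0.261 with EVs (SD, n = 3 each), 0.607 percentage points higher (exact permutation p = 0.1, the smallest possible). Ear1 contributed 0.197, Ear6 0.0981 and Ear2 0.0897 points of the difference, Epx 0.101 and Prg2 0.124. The part from Prg2 was within its spread (exact permutation p = 0.5), and without Prg2 the share was 1.19% ± 0.119 and 1.67% ± 0.152 (SD, n = 3 each).

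The promoters of the Ear genes are alike as well. RefSeq (GRCm38.p6) windows of 250 bases before to 50 bases after the start matched 5 of the 6 members by symbol, all but Prg2. Over the 250 bases before the start, Ear1 was 97.6% identical to Ear2 and 78.2% identical to Ear6. The letters TTGCNNAA, a form of the site bound by C/EBP factors, were searched on both strands and occurred in 9.55% of 27025 promoter windows, among them those of Ear1 and Ear2 but not that of Ear6. The 80-base windows shown start shortly before the longest run of bases common to the promoters of Ear1, Ear2, Ear6 and Ear10. They set this place in Ear6 beside that in Ear1 and Ear2, with the matching letters in capitals.
Ear1 (chr14:43819717-43819796, minus strand): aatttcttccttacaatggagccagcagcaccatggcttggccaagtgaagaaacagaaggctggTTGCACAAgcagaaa
Ear2 (chr14:44102499-44102578, plus strand): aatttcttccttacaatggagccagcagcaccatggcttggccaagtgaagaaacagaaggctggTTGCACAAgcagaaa
Ear6 (chr14:51853591-51853670, plus strand): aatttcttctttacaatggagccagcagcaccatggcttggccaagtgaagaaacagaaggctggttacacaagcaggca

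The common run on which the windows were placed is 57 bases long, so its identity in them was set by that choice. The letters GATAA, read by GATA factors, occurred in 23% of all promoter windows and in that of Prg3 alone among the members, in 2 places. TATAAA occurred in 13% of all windows and in that of Epx, from base -24 to -19 before the start. The letters TTCNNNGAA (STAT factors, 7.18% of windows) and GAGGAA (PU.1, 23.1% of windows) occurred in none of the 5 members. Matches of letters were not tested as binding sites.

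The nearest tested genes on each side of the members, 4 around each place and 16 in all, lay between 0.197 and 1700 kb away, and 6 of them averaged under 1 CPM with sham. Of the 16, 2 were called, both lower, beside 11.6% of all genes. These were Tnks1bp1, beyond Prg3 (log2 fold change -2.59, adjusted p = 0.000121 in edgeR's test), and Ptger2, an E prostanoid receptor gene beyond Ear2 (-1.53, adjusted p = 0.000508). Mpo, the myeloperoxidase gene near Epx, was at 2.99 CPM with sham and 3.97 CPM with EVs and was not called (adjusted p = 0.541).

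Other members of the ribonuclease A family were called in both directions. Of 12 listed, 4 were tested, with 1 higher, 1 lower and a median log2 fold change of -0.058, beside 12.1% higher and 11.6% lower over all genes. Rnase6, an antimicrobial ribonuclease of myeloid cells, rose from 40.0 ± 2.78 to 84.9 ± 5.59 CPM (SD, n = 3 each, log2 fold change 1.08, adjusted p = 4.88e-06 in edgeR's test). Rnase4 fell from 3.82 to 1.16 CPM (log2 fold change -1.72, adjusted p = 0.00148). Ear10, Rnase2a, Rnase10 and Ang were in the table but below the filter on low counts, and the other 4 had no row.

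Of 24 tested genes that pack and release granules, 2 rose and 1 fell, with a median log2 fold change of -0.060. Over all genes tested, 12.1% were called higher and 11.6% lower. These shares stand beside the counts of this list and of those below. Srgn, which encodes serglycin, the proteoglycan that holds cationic granule proteins, rose from 341 ± 30.2 to 1066 ± 27.8 CPM (SD, n = 3 each, log2 fold change 1.64, adjusted p = 1.39e-07 in edgeR's test). Snap23, a membrane fusion protein of exocytosis, also rose (log2 fold change 0.57, adjusted p = 0.001). Cd63, a membrane protein of granules, fell from 1252 ± 46.7 to 1004 ± 25.4 CPM (SD, n = 3 each, log2 fold change -0.32, adjusted p = 0.000776). The Rab27, syntaxin, VAMP, AP-3 and Hermansky-Pudlak genes on the list were not called. The counts of this list moved with the analysis, to 4 higher without sham replicate 1, and to 2 lower without sham replicate 2 or by DESeq2 and 4 lower without scaling factors.

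Among 20 tested genes of haem synthesis, peroxidases and the oxidase that supplies peroxide, 4 rose and 5 fell, with a median log2 fold change of 0.035. The 4 called genes with the largest changes were Hmox1, the haem-degrading oxygenase (log2 fold change -3.37, adjusted p = 2.27e-07), Prdx1, a peroxiredoxin (-1.85, adjusted p = 7.59e-05), Gpx1, a glutathione peroxidase (0.65, adjusted p = 3.19e-05), and Cybb, the catalytic subunit of the phagocyte oxidase (-0.47, adjusted p = 6.58e-05), all in edgeR's test. Eosinophil peroxidase uses haem and hydrogen peroxide, so this list holds its cofactor and substrate pathways. Of the haem synthesis genes on it, Alas1 alone was called, and it rose (log2 fold change 0.40, adjusted p = 0.000263 in edgeR's test). Hmox1 and Prdx1 were lowest among sham-treated cultures in sham replicate 1, as was the summed macrophage level given below. Which cells carried these falls was not tested.

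Transcription factors and regulators known to act on granule genes or granulocyte fate moved in both directions. Of 22 tested, 10 rose and 3 fell, with a median log2 fold change of 0.37. In edgeR's test, Xbp1, needed for eosinophil secretory maturation (log2 fold change 1.99, adjusted p = 2.74e-08), and Gata2 (1.07, adjusted p = 3.58e-06) rose. Irf8 (-3.15, adjusted p = 5.01e-05) and Cebpa (-2.29, adjusted p = 1.49e-06), both of which act in myeloid progenitors, fell. Irf8 and Cebpa were lowest among sham-treated cultures in sham replicate 1, as was the summed macrophage level given below. Which cells carried their falls was not tested. The other C/EBP genes on the list were split. Cebpb rose (0.80, adjusted p = 9.77e-06), Cebpd fell (-0.88, adjusted p = 0.00022) and Cebpe was not called (0.28, adjusted p = 0.0278). The remaining called genes on the list, Gata1, Zfpm1, Gfi1b, Trib1, Id1, Runx1 and Nfe2, all rose. Of 14 tested eosinophil surface and enzyme genes, 13 rose, with a median log2 fold change of 0.76, beside 0.55 for the granule genes. Il1rl1, the IL-33 receptor, had the largest change (log2 fold change 2.12, adjusted p = 2.87e-08), followed by Ptger3 (1.73, adjusted p = 0.00115), Csf2rb (1.41, adjusted p = 2.21e-07) and Cd24a (1.40, adjusted p = 1.53e-07). Il5ra, a subunit of the IL-5 receptor, was at -0.14 and was not called (adjusted p = 0.155). The 4 markers used to check the cells are among these 14 genes, and had 3 of 4 higher and a median of 0.79.

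**Figure D4:**
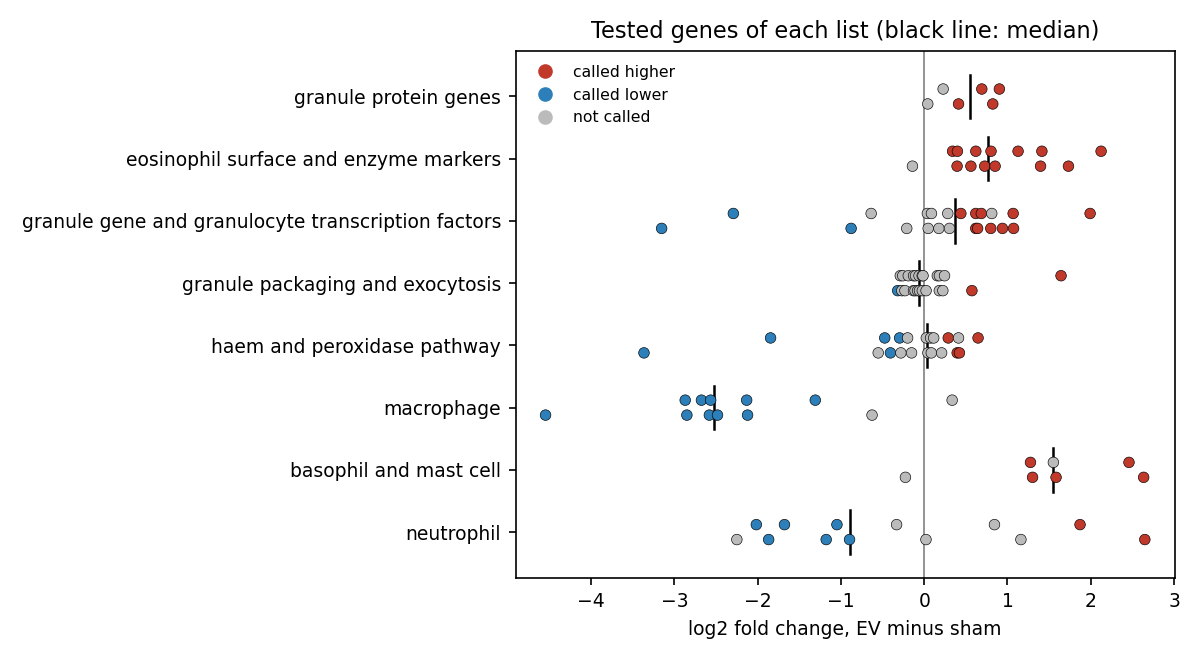
Log2 fold change (EV minus sham) of each tested gene in 8 lists, coloured red where called higher, blue where called lower and grey where not called in edgeR's test, with the median of each list as a black line. Granule protein genes have a median of 0.55, eosinophil surface and enzyme genes 0.76, packaging genes -0.060 and macrophage genes -2.52.

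Markers of other cells moved with the treatment too, and their part in the changes of the granule genes was not tested. Of 12 macrophage markers, 10 fell, with a median log2 fold change of -2.52. Among them were Cd5l (-4.55, adjusted p = 5.08e-06), Marco (-2.87, adjusted p = 0.00953) and Mertk (-2.85, adjusted p = 0.000123 in edgeR's test). The summed macrophage level was 866 to 1498 CPM with sham, lowest in sham replicate 1, and 295 to 420 CPM with EVs. The 6 granule genes summed to between 28010 and 44380 CPM in the same libraries.

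Of 7 tested basophil and mast cell markers, 5 rose, among them Ms4a2 (log2 fold change 2.64, adjusted p = 0.000124), Mcpt8 (2.46, adjusted p = 0.0018), Prss34 (1.58, adjusted p = 6.7e-05) and Cpa3 (1.30, adjusted p = 3.33e-05), and their sum was 106 to 139 CPM with sham and 277 to 347 CPM with EVs. Mcpt4, Cma1 and Mcpt1 had no row, and basophils and mast cells can themselves express Prg2. Elane, the gene of neutrophil elastase, had no row. Of 13 tested neutrophil markers, 6 fell and 2 rose, with a median of -0.90 and sums of 754 to 888 and 671 to 799 CPM. Ly6g (2.65, adjusted p = 4.16e-08) and Cxcr2 (1.87, adjusted p = 7.63e-07) rose, while Camp (-2.02, adjusted p = 0.000225) and Lcn2 (-1.87, adjusted p = 1.13e-06), which encode proteins of neutrophil granules, fell.

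T cell markers were low in both groups, summing to 13.5 to 31.6 CPM with sham and 6.25 to 8.72 CPM with EVs. Of 4 tested, Cd28 was called (log2 fold change -3.71, adjusted p = 3.69e-05 in edgeR's test), and the median was 0.065. Without sham replicate 1, 2 were called lower. Cd3e, Trbc1 and Trbc2 had no row, and Trac had at most 13 estimated counts in any library. Of 11 tested cycling and progenitor markers, Top2a was called higher (log2 fold change 0.30, adjusted p = 0.00984 in edgeR's test), Pcna (-0.69, adjusted p = 0.00251) and Cd34 (-0.49, adjusted p = 0.000618) were called lower, and the median was -0.12. The higher call was lost when any of the 6 libraries was left out, without scaling factors and with upper quartile scaling, and the number of lower calls was 1 without sham replicate 2, sham replicate 3, EV replicate 2 or EV replicate 3. The sums of 894 to 933 CPM with sham and 890 to 1019 CPM with EVs overlapped.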

How the data were processed

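Poly(A) RNA from 3 sham-treated and 3 EV-treated cultures was analysed, grouped by the treatment in the sample titles. Per the labels and the study's methods, the authors checked reads with FastQC, trimmed them with cutadapt and quantified them with Salmon, on mm10. Versions, annotation and strandedness are not given in the sources used here. The authors deposited estimated counts for 16254 genes and normalized counts, a signal made by adding 1 to each rounded count and dividing by a factor per sample, except in 6 values. The authors' table of their own comparison (mean, fold change, test statistic, p-values) was not used.

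Estimated counts were rounded and fitted with edgeR 4.0.16 in R 4.3.3 (TMM scaling, filterByExpr, quasi-likelihood test, Benjamini-Hochberg adjustment over 13498 genes). A call is an adjusted p under 0.01. Standard errors are the log2 fold change over the square root of F. DESeq2 1.42.0, limma 3.58.1, other scalings, filters and thresholds, the replicate number as a block and each sample left out were the alternatives. The steps were tested on simulated data. Single values were compared with two-sided exact permutation tests. At 23697620 to 37874426 counts per library, the 95% Wilson half-width of a share of counts was at most 0.0072 percentage points, which covers counting error only.

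Every member is named, with up to 4 called genes of largest absolute change per list and the 5 genes whose log2 CPM follows the members most closely. Il5ra, Trac, Ear-ps9, Cebpb, Cebpd, Cebpe and the chromosomal neighbours were added outside it with their values already known. So were Alas1, Gata1, Zfpm1, Gfi1b, Trib1, Id1, Runx1 and Nfe2. The result of 1 gene under this rule is not reported here. The members and lists were chosen with earlier results of these data known. Transcript models are GENCODE vM21 and promoters RefSeq GRCm38.p6. Per-kb levels used the longest protein-coding transcript, known for 96% of tested genes.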

Additional observations from a re-analysis of the deposited data

How the results depend on the processing

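Ear1, Ear2, Ear6 and their sum were higher and called in 16 of 16 alternatives, with log2 fold changes of 0.76 to 0.97, 0.68 to 0.91, 0.54 to 0.76 and 0.67 to 0.89. Epx was higher in all 16 and called in 10. Its log2 fold change was 0.27 (0.265, adjusted p = 0.0262) without scaling factors, 0.41 (adjusted p = 0.0178) when limma was run on the deposited normalized counts, as log2 with 1 added, and 0.33 to 0.49 with 1 sample left out, called without sham replicate 1 or EV replicate 2. Prg2 was higher in all 16 (0.14 to 0.33 with 1 sample left out) and called in 2, without sham replicate 1 (0.33) and with replicate number entered as a block (0.23, adjusted p = 0.000557). Prg3 was called in none and turned sign without scaling factors (-0.10), with upper quartile scaling (-0.0037) and without sham replicate 2 (range -0.015 to 0.11). The causes were not tested. Leaving out the scaling factors moved the median of all genes to -0.16, and relative to it Prg3 was at 0.058, Prg2 at 0.24 and Epx at 0.43. Calls among members numbered 3 to 5 with 1 sample left out and 0 with a log2 fold change of at least 1 required, by which calls over all lists went from 67 to 38. Of 360 list counts under an alternative, 332 stayed within 1.5 times. The share of counts (0.42 to 0.785 points higher with 1 sample left out) and the ratios kept their direction in every alternative.

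Same-numbered samples of the groups correlated across genes, in their deviations from the group means, at r = 0.168, 0.112 and 0.0314. Samples with different numbers had r from -0.162 to 0.0804. These r do not settle whether equal numbers share a preparation, and the labels do not say. The main fit took no pairs. EV replicate 3 correlated best with sham replicate 2 (0.0804), the other samples with their own number. As a block, the replicate number gave 1794 higher and 1781 lower calls over all genes, against 1632 and 1572 without it.

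Counting error is small at this depth except for Ear10 and other genes with few counts, and 3 cultures per group limit the precision. Error in dividing reads among the Ear copies was not estimated. The smallest p of an exact permutation test of 3 against 3 is 0.1.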
